A study of Mus musculus with 3 samples.

Results

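The 36 genes described here encode enzymes of glycolysis, of pyruvate entry into mitochondria and of the citrate cycle, and were read in ribosome-bound RNA from the deep nuclei of the mouse cerebellum, from which most of its output leaves. The RNA was obtained by TRAP, in which ribosomes carrying a tag are pulled out of a tissue together with the messages they translate. The genes are a list of named pathway enzymes, drawn up with earlier results of these data known, and all 36 were found by symbol among the 32531 gene symbols of the count tables. The 3 libraries form 1 group of adult C57BL/6J mice of the Htr6-TRAP NIDA113 line, a transgenic line named after a serotonin receptor gene, whose tagged ribosomes carry EGFP fused to Rpl10a and were captured with antibodies to EGFP. Whether separate animals stand behind the 3 libraries is not stated in the labels, so the spread between them may be technical. RNA of the unpurified tissue was not analysed here, so the values are levels and not enrichment. There is no control group, so levels are compared between genes within a library, and the spread over the 3 libraries is the error.

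Glycolysis turns glucose into pyruvate in the cytosol with a small yield of ATP. Pyruvate is then either reduced to lactate by lactate dehydrogenase or carried into mitochondria, where the pyruvate dehydrogenase complex makes acetyl-CoA for the citrate cycle, and the reducing equivalents feed oxidative phosphorylation. Several steps have isoenzymes that differ between tissues and cell types, and neurons are known for gamma-enolase (Eno2), the B subunit of lactate dehydrogenase and hexokinase 1.

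Depth was 7622010 to 8842058 gene counts per library, and 13095 to 13951 genes had at least 1 count. Levels are given as CPM, the counts scaled to a common library size, and wherever 2 genes are compared they are given per length as RPKM, the CPM divided by the length of the gene's exons in kilobases. A count of 0 in a library allows up to 0.397 CPM, taking 3 counts as the limit for counting error alone. Of the marker lists, the 9 pan-neuronal genes had the highest sum, 17571 to 25630 CPM. The lists differ in size and in the genes chosen, so their sums do not rank cell types. Markers of other cells were counted too: 3116 to 3642 CPM over 6 granule cell genes, 5639 to 7577 CPM over 6 Purkinje cell genes, 1670 to 2208 CPM over 7 genes of astrocytes and Bergmann glia and 1441 to 1847 CPM over 6 oligodendrocyte genes. The 5 genes of glutamatergic deep nuclei neurons summed to 421 to 662 CPM. The 6 microglial genes gave 19.8 to 35.9 CPM with C1qa, Aif1 and Trem2 at 0, and the 4 vascular genes gave 44.6 to 92.7 CPM with Cldn5 at 0. The part of each cell type in the values below was not tested, and in such bulk RNA fewer cells of a type cannot be told apart from less RNA per cell.

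Many of the enzyme genes were abundant, though not most by a cut of 100 CPM. They made up 0.680%, 0.621% and 0.620% of the effective library in replicates 1, 2 and 3, and Gapdh alone gave 24.8%, 29.0% and 28.4% of that sum. Of the 36 genes, 17 averaged at least 100 CPM, 13 lay from 10 to 100 CPM and 6 lay under 10 CPM. The share at 100 CPM or more, 47.2%, compares with 18.5% of the 11168 genes that reached 10 counts in at least 2 of the libraries. In that set were 34 of the 36, since Hk2 and Idh2 did not reach the minimum. The median of log2(RPKM + 0.1) over the 36 genes was 5.39, 5.37 and 5.24 in the 3 libraries, against 2.85, 2.81 and 2.83 over the 10341 genes of that set with a known exon length. The highest mean was 1170 RPKM for Gapdh and the lowest 0.130 RPKM for Idh2.

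**Figure D1:**
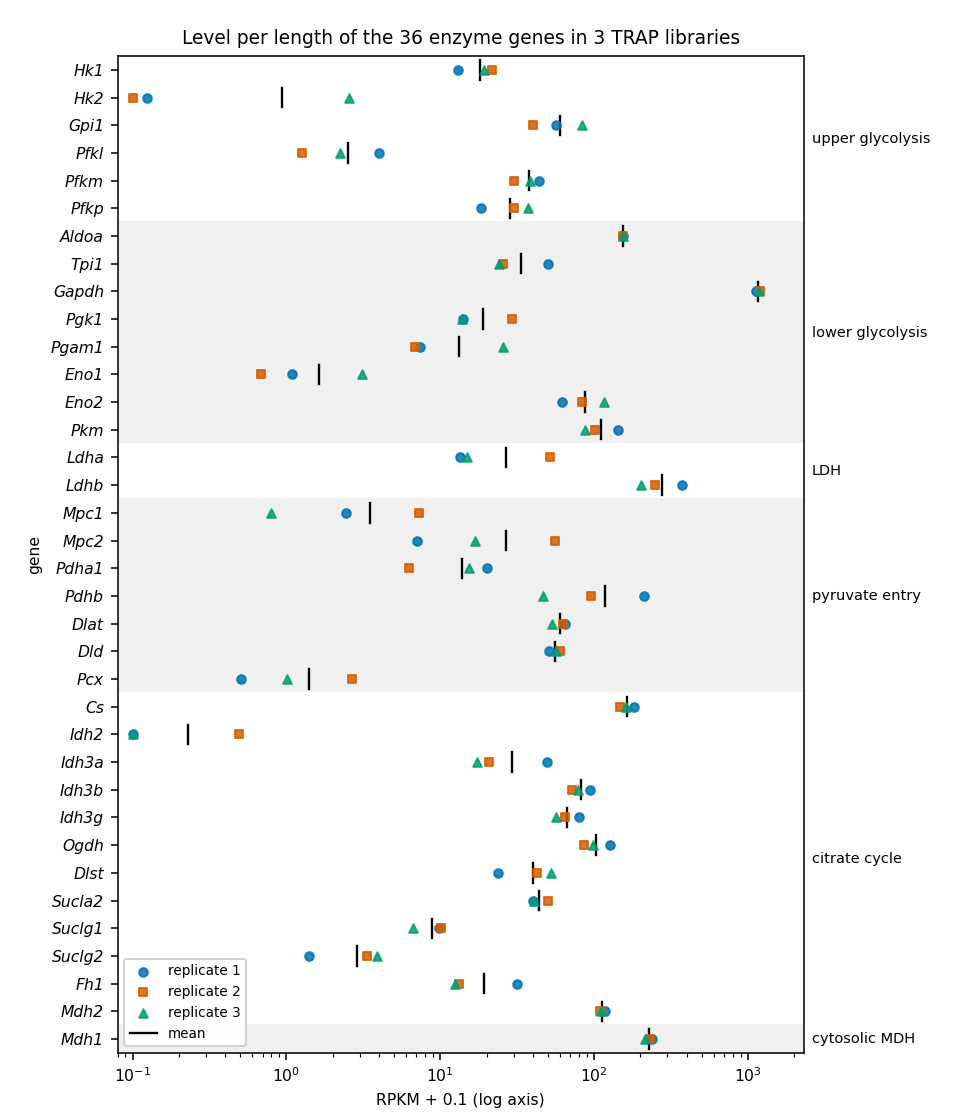
Level per length of each of the 36 genes, as RPKM + 0.1 on a log axis, with 1 symbol for each replicate and a black tick at the mean of the 3 libraries. Gapdh is highest at 1170 RPKM, and Idh2 and Hk2 have a library at 0, drawn at 0.1.

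In the first steps of glycolysis, which trap glucose in the cell and commit it to breakdown, the summed level per length averaged 18.8 RPKM for hexokinase, 59.8 for Gpi1, 68.3 for phosphofructokinase and 388 for aldolase. Hexokinase was almost all Hk1, the isoenzyme bound to mitochondria that is typical of brain. Hk2, the form typical of muscle and of cells that respond to insulin, had 1, 0 and 108 counts in replicates 1, 2 and 3, against 476, 926 and 727 counts for Hk1. All but 1 of the Hk2 counts came from replicate 3, where it made up 11.4% of the hexokinase RPKM, and its level there was at least 40.7-fold above the limit that 0 counts allow in replicate 2. In replicate 2, Hk1 was at least 357-fold higher per length than Hk2. The difference of Hk2 minus Hk1 was -5.80 ± 2.56 on the log2(RPKM + 0.1) scale (SD, n = 3), a size that the pseudocount sets in part (-3.61 with a pseudocount of 1), and Hk2 was lower in 3 of 3 libraries. Gpi1, the isomerase that turns glucose phosphate into fructose phosphate, was at 56.4, 39.9 and 83.0 RPKM, higher than Hk1 in each library.

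Phosphofructokinase, the step at which cells commit sugar to glycolysis, was shared by the muscle and the platelet isoform genes. Pfkl, named for the liver, had 3.90, 1.16 and 2.13 RPKM in replicates 1, 2 and 3. Pfkp, the platelet type that is also abundant in brain, had 18.2, 29.9 and 37.3 RPKM, and Pfkm, the muscle type, 43.8, 30.2 and 38.3 RPKM. Per length, Pfkm thus gave 55% ± 9.9, Pfkp 41.5% ± 12 and Pfkl 3.5% ± 2.1 of the step (SD, n = 3). Pfkl lay below both others in 3 of 3 libraries, by -4.05 ± 0.57 against Pfkm and by -3.61 ± 1.25 against Pfkp on the log2 scale. The difference of Pfkp minus Pfkm was within its SD: it was -1.26, -0.01 and -0.04, or -0.44 ± 0.71, and it was 0.08 ± 0.71 on the log2(CPM + 1) scale, which ignores that Pfkp is the longer gene. Without replicate 1 it was -0.02. Of the windows of 50 bases in the longest coding transcript of Pfkp, 17.1% also lie in Pitrm1, a neighbour that overlaps it.

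Aldolase and glyceraldehyde phosphate dehydrogenase were the peaks of the pathway. Aldoa, which cleaves fructose bisphosphate, had 2117, 2464 and 2201 counts, or 280, 280 and 282 CPM, and was at 154 ± 0.805 RPKM (SD, n = 3). Aldoc, the brain isoenzyme, which Purkinje cells and astrocytes are known to express, is no member of the 36 but completes the step, with 5846, 5871 and 5061 counts and 234 ± 22.7 RPKM. Aldoa thus gave 37.1%, 40.6% and 41.5% of aldolase per length in replicates 1, 2 and 3. Gapdh had 12757, 15848 and 13727 counts, or 1689, 1799 and 1762 CPM. By mean RPKM it ranked 8th of all genes with a length, and by mean CPM 38th of all genes. Tpi1, which interconverts the triose phosphates between these steps, was far lower, at 50.4, 25.4 and 24.0 RPKM.

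The next steps after Gapdh were at low levels, and enolase and pyruvate kinase were higher again. Pgk1, which makes the first ATP of glycolysis (ENSMUSG00000062070.12, plus strand of chromosome X, positions 106187100 to 106203699 in mm10), had 193, 466 and 195 counts, or 14, 29.0 and 13.7 RPKM. Pgam1, which moves the phosphate of phosphoglycerate, had 97, 106 and 354 counts, or 7.24, 6.78 and 25.6 RPKM. Pkm, pyruvate kinase, had 143, 102 and 87.6 RPKM, and counts per gene do not separate its M1 and M2 splice forms. Reads aligned to several places were not counted under a gene, and 68.0% of the 50-base windows of the Pgk1 transcript, 41.5% of those of Pgam1 and 30.5% of those of Pkm occur in transcripts of other genes elsewhere. The share was 82.5% for Gapdh, the most abundant member, with 222 copies, and 7.5% for Tpi1. Taking only unshared windows as the length, Pgk1 was at 60.7 ± 28.1 and Pgam1 at 23.2 ± 18.9 CPM per kilobase of windows, while Gapdh was at 7290 ± 233 (SD, n = 3). These values divide all counts of a gene by its unshared windows. They are too high wherever reads in shared windows were counted. Whether reads lost to copies set the low steps was not tested.

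**Figure D2:**
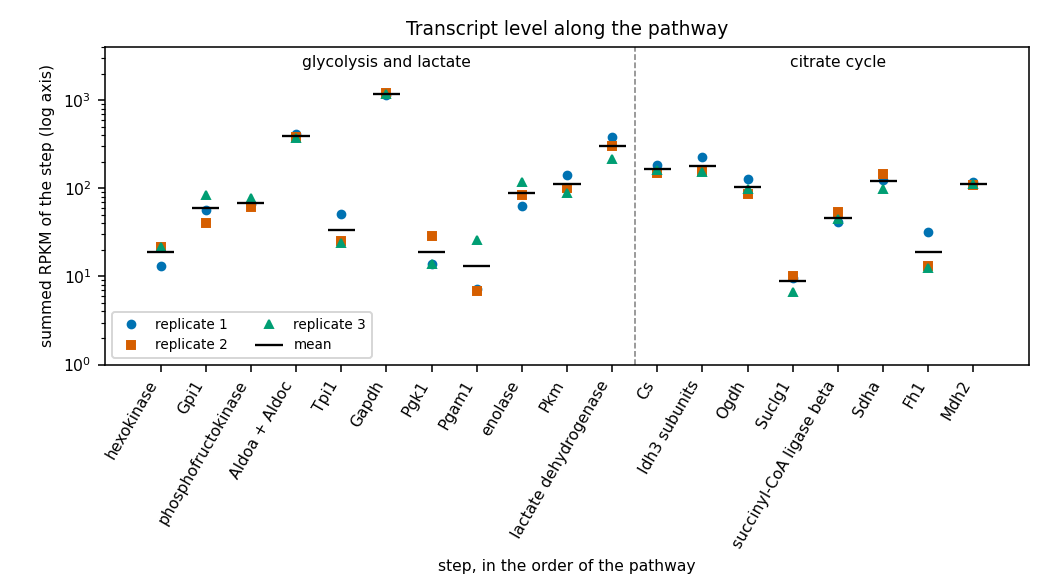
Summed RPKM of the genes of each step on a log axis, in the order of the pathway, with 1 symbol per replicate and a black bar at the mean. The aldolase step (388 RPKM) and Gapdh (1170 RPKM) stand above their neighbours, while Pgk1 (18.9 RPKM), Pgam1 (13.2 RPKM), Suclg1 (8.76 RPKM) and Fh1 (19.0 RPKM) lie lowest with hexokinase (18.8 RPKM).

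Enolase was almost entirely the neuronal isoenzyme. Eno1, the enolase of most tissues (chromosome 4, positions 150236721 to 150248879), had 19, 13 and 60 counts, against 1308, 2055 and 2529 counts for Eno2, the gamma-enolase used as a marker of neurons (chromosome 6, positions 124760053 to 124769673, minus strand). Eno1 was 1.6%, 0.7% and 2.5% of enolase per length, and each Eno2 value lay above each Eno1 value. The difference of Eno1 minus Eno2 was -6.00 ± 0.87 on the log2(RPKM + 0.1) scale (SD, n = 3). Of the Eno1 windows, 70.5% are also in Eno1b, a near-identical gene that itself had 6, 4 and 2 counts, so the counted level of Eno1 is uncertain. Per unshared window the difference was -3.92 ± 0.94, with Eno1 still lower in 3 of 3 libraries.

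Lactate dehydrogenase was mainly the B subunit. The B form is known from heart and neurons, and tetramers rich in it favour the use of lactate, while the A form is known from muscle and other glycolytic tissues. Ldha (chromosome 7, positions 46841475 to 46855627, plus strand) had 190, 858 and 219 counts in replicates 1, 2 and 3, or 13.3, 51.4 and 14.8 RPKM. Ldhb (chromosome 6, positions 142490249 to 142507957, minus strand) had 3659, 2879 and 2047 counts, or 371, 251 and 201 RPKM. Every Ldhb value lies above every Ldha value. Ldha was 3.4%, 17.0% and 6.9% of the pair per length, with replicate 2 highest, and the difference of Ldha minus Ldhb was -3.61 ± 1.26 on the log2 scale (12.2-fold lower, SD, n = 3). In replicate 2, where Ldha was highest, the sum of astrocyte markers was 1839 CPM, between the 1670 and 2208 CPM of replicates 1 and 3, and the sum of vascular markers was 92.7 CPM, above 44.6 and 57.0 CPM. The sums of Purkinje cell (7577 CPM), oligodendrocyte (1847 CPM) and microglial markers (35.9 CPM) were also highest in replicate 2. Their part in the Ldha level was not tested.

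The sequences before the transcription starts of both lactate dehydrogenase genes are shown because this pair is known to be used differently in glycolytic and oxidative tissues. Hypoxia-inducible factors bind at a core of ACGTG, and Ldha is a textbook target. The 250 bases before a RefSeq start of each gene (GRCm38.p6, read 5′ to 3′ on the gene's strand, at chr7:46845554-46845803 on the plus strand and chr6:142507958-142508207 on the minus strand) have each ACGTG, on either strand, in capitals.
Ldha: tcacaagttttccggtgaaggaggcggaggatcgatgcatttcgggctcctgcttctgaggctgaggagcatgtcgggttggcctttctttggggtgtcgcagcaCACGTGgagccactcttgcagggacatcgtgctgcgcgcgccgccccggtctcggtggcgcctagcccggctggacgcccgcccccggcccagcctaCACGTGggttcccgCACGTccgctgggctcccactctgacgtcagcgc
Ldhb: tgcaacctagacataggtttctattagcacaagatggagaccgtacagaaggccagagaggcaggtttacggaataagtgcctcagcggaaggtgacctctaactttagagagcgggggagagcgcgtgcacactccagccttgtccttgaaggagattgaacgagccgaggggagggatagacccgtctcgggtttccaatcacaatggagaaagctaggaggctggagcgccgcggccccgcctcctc

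The Ldha window holds 3 such blocks, of which CACGTG reads the same on both strands, and the Ldhb window holds none, nor does the window of a second Ldha start. Promoter windows were found for 35 of the 36 genes, all but Idh3a. ACGTG on either strand was in a window of 12 of these 35 genes (34.3%) and of 18.5% of the 27025 genes in the table. Among glycolytic members it was in 6 of 14, and among citrate cycle members in 2 of 11. A motif of the factor NRF1, which acts on mitochondrial genes (TGCGCA, either strand), was in 7 of 35 genes (20%) and in 7.4% of all. It was in 4 of 14 glycolytic members (28.6%) and in 1 of 11 citrate cycle members (9.1%). The estrogen-related receptor motif AAGGTCA was in 1 of 35 genes (2.9%) and in 4.7% of all. A gene counts if any of its windows holds the motif, and windows per gene were not matched: 52 for the 35 genes and 32851 for the 27025. By window, ACGTG was in 36.5% of the 52 and 16.6% of all, and TGCGCA in 17.3% and 6.4%. Windows of 1 gene can overlap, as those of Ogdh do. No motif contains another, though neighbouring matches can share end letters. The windows were not matched for base composition, and a match is a description of letters and not a binding site.

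**Figure D3:**
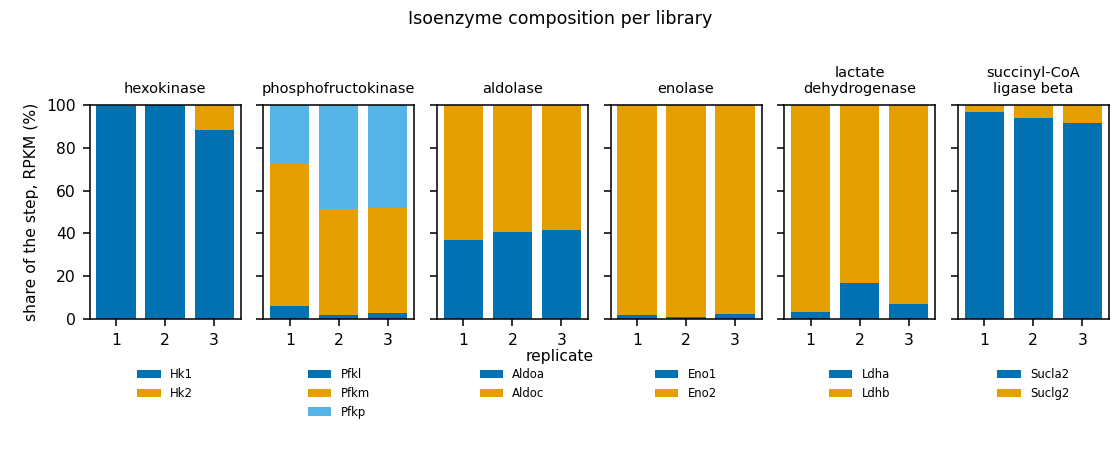
Share of each isoenzyme gene in its step as a percentage of the summed RPKM, in stacked bars from 0 to 100% for each of the 3 replicates. Hk1, Eno2, Ldhb and Sucla2 take at least 83.0% of their step in every library, while phosphofructokinase and aldolase are divided.

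Pyruvate enters mitochondria through a carrier of paired MPC1 and MPC2 subunits, and both genes varied widely. Mpc1 had 26, 93 and 8 counts, and Mpc2 had 54, 506 and 133 counts. Both were highest in replicate 2. Mpc2 was at 6.98, 56.03 and 16.7 RPKM, against 2.34, 7.18 and 0.698 RPKM for Mpc1, a difference of 2.96 ± 1.43 on the log2 scale (SD, n = 3) with Mpc2 higher in 3 of 3 libraries. It was 3.67 without replicate 1, 2.24 without replicate 3 and 2.0 per unshared window. Both are short genes (1025 bases for Mpc2, 1470 bases for Mpc1), and 23.2% of the Mpc1 windows are shared with copies elsewhere.

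Genes of the pyruvate dehydrogenase complex were unequal in level and in spread. Pdhb, the beta subunit of its first enzyme, had 2422, 1275 and 544 counts, or 212, 95.6 and 46.1 RPKM, a 4.59-fold range between libraries as CPM. Pdha1, the alpha subunit and site of regulation by kinases, had 431, 154 and 338 counts, or 20.03, 6.14 and 15.2 RPKM. The subunits pair in the protein, yet Pdhb exceeded Pdha1 by 2.98 ± 1.23 on the log2 scale in 3 of 3 libraries. Dlat, the acetyltransferase, and Dld, the lipoamide dehydrogenase that the complex shares with other dehydrogenases, were steady, at 60.2 ± 5.96 and 55.8 ± 4.53 RPKM. Of the Pdhb windows, 30.3% are shared with 1 copy elsewhere, and 16.9% of the Pdha1 windows with other genes, mostly Map3k15, which overlaps it. Pcx, pyruvate carboxylase, which refills the citrate cycle and is known as an astrocyte enzyme in brain, had 13, 96 and 30 counts, or 0.405, 2.57 and 0.907 RPKM, and lay below Pdha1 by -3.49 ± 2.08 in 3 of 3 libraries. It too was highest in replicate 2.

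Genes of citrate synthase and of the oxoglutarate dehydrogenase complex were at high levels. Cs, citrate synthase, which joins acetyl-CoA to oxaloacetate, had 4036, 3823 and 3681 counts, or 183, 148 and 161 RPKM. Ogdh, the first enzyme of the oxoglutarate dehydrogenase complex, was at 126, 85.6 and 98.8 RPKM, and its partner Dlst at 23.8, 42.7 and 52.7 RPKM. Their order among the libraries was not the same: Ogdh was highest and Dlst lowest in replicate 1.

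Of the isocitrate dehydrogenase genes, those of the NAD-dependent enzyme had the higher levels. Idh3b, a regulatory subunit, was at 94.0, 72.3 and 79.0 RPKM, and Idh3g, the other regulatory subunit, at 79.9, 64.2 and 56.5 RPKM. Idh3a, the catalytic subunit, was lower, at 49.5, 20.8 and 17.4 RPKM. Idh3b minus Idh3a was 1.63 ± 0.64 and Idh3g minus Idh3a was 1.34 ± 0.56 on the log2 scale (SD, n = 3), each above 0 in 3 of 3 libraries, though as CPM the second difference was -0.26 in replicate 1. Idh2, the NADP-dependent mitochondrial enzyme, had 0, 6 and 0 counts. Idh3a was at least 218-fold higher per length than Idh2 in replicate 1 and at least 78.7-fold higher in replicate 3, and none of the Idh2 windows is shared with another annotated gene. The cytosolic NADP-dependent enzyme gene Idh1, no member of the 36, had 0, 63 and 39 counts.

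Among the later cycle genes, Suclg1, Suclg2 and Fh1 were at low levels. Suclg1, the alpha subunit that all succinyl-CoA ligases share, had 111, 134 and 78 counts, or 9.67, 10.01 and 6.59 RPKM. Its beta partner was mainly the ATP-forming Sucla2. Suclg2, the GTP-forming beta subunit, had 1.30, 3.26 and 3.79 RPKM, against 39.9, 50.3 and 40.9 RPKM for Sucla2, a difference of -4.05 ± 0.73 on the log2 scale (SD, n = 3) and 3.2%, 6.1% and 8.5% of the beta subunit genes. Of the Suclg2 windows, 21.8% are shared with 1 copy. Sdha, the flavoprotein of succinate dehydrogenase and no member, was at 121 ± 23.5 RPKM, while the counts of the other subunits were 368, 183 and 214 for Sdhb, 822, 242 and 303 for Sdhc, and 397, 95 and 23 for Sdhd. Fh1, fumarase, had 628, 305 and 254 counts, or 31.5, 13.1 and 12.4 RPKM.

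Malate dehydrogenase genes were abundant and steady. Mdh1, the cytosolic enzyme of the malate-aspartate shuttle, had 3839, 4290 and 3516 counts, or 240, 229 and 213 RPKM. Mdh2, the mitochondrial enzyme that closes the cycle, had 1289, 1392 and 1253 counts, or 117, 109 and 110 RPKM. The difference of Mdh1 minus Mdh2 was 1.03, 1.08 and 0.94 on the log2 scale, or 1.02 ± 0.07 (2.03-fold, SD, n = 3), the smallest spread of the 14 pairs compared. Got1, the cytosolic aspartate aminotransferase of the same shuttle, was at 376 ± 71.6 RPKM, against 28.2 ± 10.6 RPKM for the mitochondrial Got2.

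**Figure D4:**
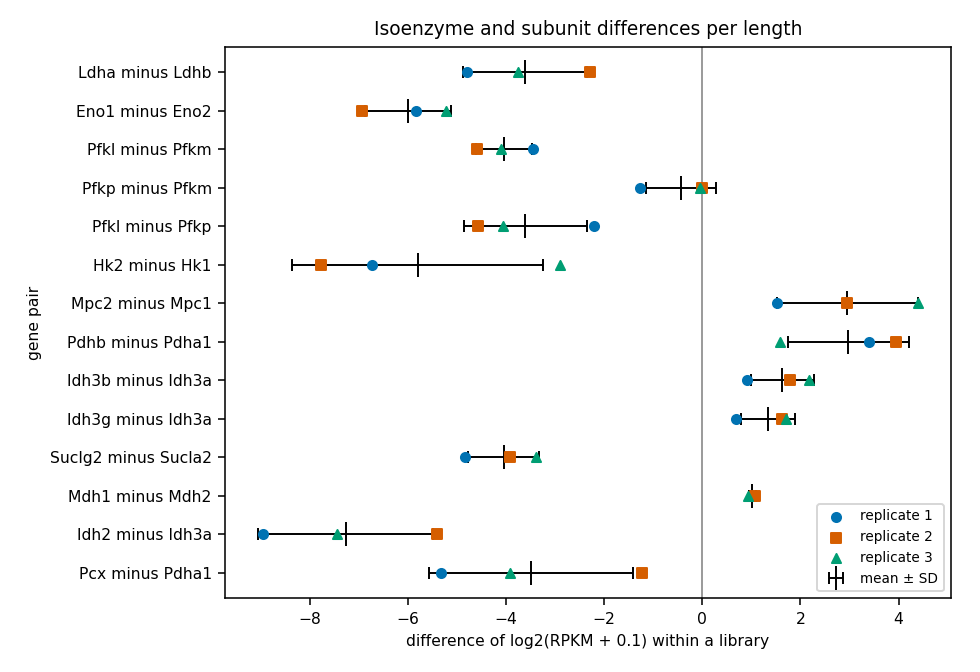
Difference of log2(RPKM + 0.1) within a library for the 14 pairs, with 1 symbol per replicate and the mean ± SD of the 3 libraries in black. Each pair has the same sign in all 3 libraries, and Pfkp minus Pfkm lies nearest to 0, at -0.44 ± 0.71.

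Flipping the signs of the 3 within-library differences in an exact two-sided permutation test gave p = 0.25 for each of the 14 pairs, the smallest p that 3 libraries allow, so none can pass a threshold of 0.05 and sizes are judged against the SD. The SD was larger than the mean difference for 1 pair, Pfkp minus Pfkm. Set against each other as branches, the 14 glycolytic genes had a median of 4.83, 4.88 and 4.95 and the 12 citrate cycle genes of 5.48, 5.54 and 5.54 on the log2(RPKM + 0.1) scale in replicates 1, 2 and 3. The difference of glycolytic minus citrate cycle median was -0.65, -0.65 and -0.59. That order rests on the scale: as log2(CPM + 1) the difference was 0.03 ± 0.27, and as a difference of means -0.05 ± 0.50, both within their SD.

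The libraries differed in most of these genes by more than counting error. By a Poisson chi-square test of the counts with Benjamini-Hochberg adjustment over 11168 genes, 32 of the 34 members tested varied between libraries at an adjusted p under 0.05, near the 96.5% of all genes tested. The exceptions were Aldoa (adjusted p = 0.941) and Mdh2 (adjusted p = 0.119). The median coefficient of variation was 32.8% over the 34 members and 56.3% over all genes tested, and 18.3% over the 17 members at 100 CPM or more, against 25.4% over the 2067 genes of that level. The range between the highest and lowest library was under 2-fold for 17 of the 34 members (50%) and for 29.0% of all genes tested. It was under 2-fold for 13 of the 17 members at 100 CPM or more (76.5%) and for 71.5% of all genes of that level.

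The steadiest members were those of high level. The coefficient of variation was 0.5% for Aldoa, 3.2% for Gapdh, 4.1% for Mdh2, 6.0% for Mdh1, 8.1% for Dld, 9.9% for Dlat and 10.6% for Cs. It was 98.9% for Mpc1, 97.9% for Mpc2, 87.5% for Pcx, 85.6% for Eno1, 81.4% for Ldha and 81.3% for Pgam1 among the 34, and Pdhb at 72.2% varied the most of those at 100 CPM or more. Replicate 1 was the highest library for 16 of the 34 members (47.1%) and for 35.2% of all genes tested. Among citrate cycle members it was highest for 7 of 11, but among glycolytic members for 4 of 13 (30.8%), where replicate 3 was highest for 6. The pan-neuronal markers also summed highest in replicate 1, at 25630 CPM, against 23561 and 17571 CPM in replicates 2 and 3, as did those of glutamatergic deep nuclei neurons, at 662 CPM, against 476 and 421 CPM. The sums of granule cell (3116 CPM), Purkinje cell (5639 CPM) and astrocyte markers (1670 CPM) were lowest in replicate 1. The part of these shifts in the enzyme levels was not tested.

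**Figure D5:**
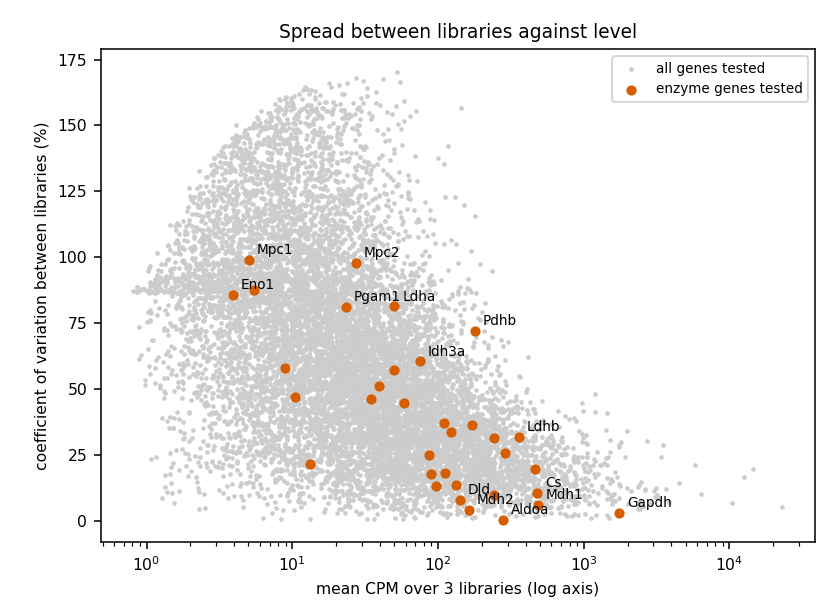
Coefficient of variation between the 3 libraries in percent against mean CPM on a log axis, for the 34 members with at least 10 counts in 2 libraries (orange) and all 11168 such genes (grey). The spread falls with the level, and Pdhb (72.2%) stands above members of like level while Aldoa (0.5%) lies lowest.

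Of the 75 other genes of the pathway that were listed, 74 are in the tables, 1 of them, Tigar, under its older symbol 9630033F20Rik. Glucose entry was led by Slc2a1, the GLUT1 gene of endothelium and glia, with 1287, 1438 and 1259 counts, or 50.6 ± 1.44 RPKM (SD, n = 3). Slc2a3, the GLUT3 gene of neurons, had 224, 634 and 204 counts, or 10.8 ± 6.44 RPKM, and Slc2a4 had no count. Of the lactate carriers, Slc16a1 (MCT1) had 243, 288 and 253 counts, or 7.33 ± 0.058 RPKM, Slc16a7 (MCT2, the neuronal form) 1.19 ± 0.18 RPKM, and Slc16a3 no count. Isoenzymes of other tissues were near or at 0: of 11 in the tables, all under 10 CPM, Hk3, Pgk2, Pgam2, Pdha2 and Gapdhs had no count in any library. Ldhc, of the testis, had 66, 0 and 0 counts.

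Regulators of pyruvate dehydrogenase were led by the kinase gene Pdk2, with 3358, 4718 and 2493 counts or 193 ± 48.2 RPKM (SD, n = 3), which was 97.6%, 97% and 91.0% of the 4 kinase genes per length. Pdk4, a kinase that rises with fasting, had 23, 2 and 223 counts. Pdhx, which binds the third enzyme of the complex, had 346, 69 and 330 counts, and was lowest in replicate 2, as was Pdha1. Pfkfb2, a kinase that makes the activator of phosphofructokinase, had 2722, 460 and 320 counts, with replicate 1 highest, as it was for Pfkfb3 (754, 317 and 202 counts). Pfkfb1 had none. In the pentose phosphate branch, G6pdx led at 38.9 ± 2.29 RPKM. In glycogen metabolism Pygb, the brain phosphorylase, had the highest mean, 21.8 ± 19.8 RPKM, while Gys2 had no count. Pygb was at 44.6, 8.97 and 11.8 RPKM in replicates 1, 2 and 3, and Ugp2 was higher in replicate 2, at 16.1 RPKM. Gluconeogenesis was led by G6pc3 at 17.6 ± 4.96 RPKM, and Fbp1, Fbp2, Pck1 and G6pc had no count.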

How the data were processed

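The deposited values are raw read counts per gene symbol, 1 table per library. HTSeq, STAR 2.0.0e and mm10 as the build are listed by the submitters' processing notes. Strand setting and gene annotation were not given in the sources used here. Overlapping genes therefore cannot be told apart. Summary rows stayed out of library sizes: of reads placed in a gene, in no feature or ambiguously, 44.1% to 50.2% had no feature and 1.77% to 1.95% were ambiguous.

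CPM used TMM library sizes (edgeR 4.0.16, R 4.3.3). RPKM used the union of exons in the basic set of GENCODE M21, same build, for 23154 symbols. Pseudocounts were 0.1 (RPKM) and 1 (CPM). Shared windows are exact 50-base matches, either strand, to GENCODE transcripts of other genes. As a length, unshared windows leave out those found in copies elsewhere and keep those in overlapping genes. Promoter bases are from RefSeq. Pairs were compared within libraries by exact sign-flip permutation (scipy 1.17.1), and spread by a Poisson chi-square test. The chi-square test was tried only on counts simulated with Poisson error, which have less spread than these libraries. An alternative was edgeR's quasi-likelihood dispersion. Others were DESeq2 1.42.0 size factors, another length, pseudocount or filter, and leaving out each library. The members and lists were chosen with earlier results of these data known. All 36 members are described. Of the other pathway genes, the text names the highest of each class per length, those that complete a step, those at 0 and a few to complete a group, chosen after their values were seen. Some genes of the wider pathway are not reported here.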

Additional observations from a re-analysis of the deposited data

How the results depend on the processing

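All 14 pairs kept their sign with the length of the longest coding transcript, a pseudocount of 1 on RPKM and DESeq2 size factors. They kept it without any 1 library and with unshared windows as the length, the latter chosen after seeing the data. Unshared windows still include those in overlapping genes. They could not test the overlap of Pfkp with Pitrm1 or of Pdha1 with Map3k15. On the log2(CPM + 1) scale 13 pairs kept their sign, and Pfkp minus Pfkm turned to 0.08. The median of glycolytic minus citrate cycle genes, -0.63, was 0.03 as log2(CPM + 1), -0.59 with the longest coding transcript, -0.24 with unshared windows and -0.05 as a difference of means. The scale itself makes the first of these changes, and the cause of the others was not tested. By edgeR's quasi-likelihood dispersion over its trend, 0 of 34 members and 0 of 11168 genes varied more than genes of their level at an adjusted p under 0.05. At an unadjusted p under 0.05 there were 477 genes, of which 1 member, Pdhb. That test asks about spread beyond the trend and not beyond counting error. With a pseudocount of 1, Hk2 minus Hk1 was -3.61 and Idh2 minus Idh3a was -4.61, and with unshared windows Eno1 minus Eno2 was -3.92. Leaving out 1 library in turn gave -7.25 to -4.82 for Hk2 minus Hk1, -4.62 to -2.58 for Pcx minus Pdha1, -8.20 to -6.43 for Idh2 minus Idh3a, 2.24 to 3.67 for Mpc2 minus Mpc1, -4.28 to -3.02 for Ldha minus Ldhb, -4.32 to -3.13 for Pfkl minus Pfkp and 2.49 to 3.67 for Pdhb minus Pdha1, and smaller moves for the other pairs. The Poisson count was 32 of 34 members with DESeq2 size factors and with total counts, beside 96.5% of all genes in both. It was 25 of 33 without replicate 1, 28 of 33 without replicate 2 and 27 of 34 without replicate 3, beside 80.5%, 81.8% and 82.2% of all genes. With 3 libraries and no molecular identifiers, limits cover counting error only, and levels of Mpc1, Pcx, Eno1, Hk2 and Idh2 rest on few counts.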
